A study of Mus musculus with 29 samples.

Results

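The mitochondrial chromosome of the mouse carries its own small set of genes, and all 37 of them were described here, chosen as every gene whose symbol begins with mt-, out of 48709 gene identifiers in each count table. They comprise 2 ribosomal RNA genes, 22 transfer RNA genes and 13 protein genes, and all 37 matched an entry of the RefSeq annotation (GRCm38.p6), which lists 37 genes on that chromosome. The RNA came from cortex of mouse embryos at E16.5, from a sort on Tbr2 (encoded by Eomes), a transcription factor of basal progenitors, the intermediate precursors that divide away from the ventricle. Sequencing libraries were made from Tbr2+ samples given vehicle (3 libraries) or trichostatin A (TSA, an inhibitor of histone deacetylases; 2 libraries), and from Tbr2- samples given vehicle (3) or TSA (2). The Tbr2- fraction is every remaining cell, not 1 cell type. Strain, dose, route and the solvent used as vehicle are not in the labels used here, nor is any statement that libraries came from separate embryos or litters, so p-values measure the spread between these libraries, which may be technical. The series is titled and described as sorted nuclei, whereas the protocol field names whole tissue as the source of the RNA. The first wording matters for these genes, because mitochondrial RNA lies outside the nucleus. Eomes levels, given below, differed between the 2 fractions. Tbr2+ and Tbr2- cells below stand for the sorted samples, whether nuclei or cells.

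Mitochondrial DNA is transcribed on both strands into long precursors that cover many genes. The tRNAs sit between the rRNA and protein genes and are cut out by the mitochondrial RNase P and by the 3′ nuclease ELAC2, which frees the neighbouring RNAs. The rRNAs form the mitochondrial ribosome, and the protein genes encode core subunits of complexes I, III and IV and of the ATP synthase, whose many other subunits are encoded in the nucleus.

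Library totals ran from 18567111 to 26282652 counts. Eomes, the check of the sort, stood at 370.4 to 548.0 CPM (a gene's count scaled to 1e+06 counts of the TMM-adjusted library total) in Tbr2+ vehicle, 391.0 to 462.1 in Tbr2+ TSA, 13.9 to 22.0 in Tbr2- vehicle and 8.23 to 14.2 in Tbr2- TSA. Mitochondrial genes took 617171 counts in all, of which protein genes held 67.6%, rRNAs 31.6% and tRNAs 0.725%. As a share of a library's counts, they made up 0.0979%, 0.191% and 0.306% in the Tbr2+ vehicle libraries 1 to 3, and 0.306% and 0.328% in the Tbr2+ TSA libraries. The Tbr2- vehicle libraries held 0.114%, 0.283% and 0.272%, and the Tbr2- TSA libraries 0.445% and 0.323%. The vehicle library numbered 1 stood apart in both populations. It had the smallest mitochondrial share, and rRNA made up 40.5% (Tbr2+) and 61.8% (Tbr2-) of its mitochondrial counts, against 17.8% to 33.0% in the other vehicle libraries and 27.98% to 41.2% in the TSA libraries. Calls and TSA effects below that rest on these 2 libraries are also given without them. In bulk samples, fewer cells of a type and less RNA per cell cannot be told apart, and the same holds for fewer mitochondria per cell.

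Counts were spread very unevenly along the chromosome. Of the 37 genes, 15 passed the filter on low counts and were tested (both rRNAs, 7 protein genes and 6 tRNAs), 9 had counts but fell below it (1 protein gene and 8 tRNAs), and 13 had no count in any library (5 protein genes and 8 tRNAs). Of the 13 without a count, 10 lay in a single block, and the tRNAs mt-Tw, mt-Ty and mt-Th lay outside it. The 11 neighbouring genes from mt-Ts1 to mt-Nd4l (chromosome MT, 6870 to 10173, GRCm38.p6; 3304 bases) held 1 count in all 10 libraries together, although mt-Co1 on one side had 90024 and mt-Nd4 on the other had 31326. The block holds 5 tRNAs and 6 protein genes: mt-Co2 and mt-Co3 (subunits of complex IV), mt-Atp6 and mt-Atp8 (the ATP synthase), and mt-Nd3 and mt-Nd4l (complex I). The single count lay in mt-Nd3, in a Tbr2- vehicle library. A count of 0 allows up to 3 counts in a library, here 0.124 to 0.16 CPM, counting error only.

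Several nuclear pseudogenes copy mitochondrial DNA, and 2 with a RefSeq position match block genes in length. Gm10222 (chromosome 1, 24612404 to 24612700) and mt-Nd4l are both 297 bases long, and Gm10925 (chromosome 1, 24613971 to 24614651) and mt-Atp6 are both 681 bases long. These copies had 1 and 6 counts. Of the 8 copies looked for, 6 had counts, 623 in all, with 522 in Gm28438, 70 in Gm10221 (chromosome 5 in RefSeq), 14 in Gm28437 and 10 in Gm29216. Of the 2 that were tested, Gm28438 and Gm10221, neither passed in any comparison in edgeR; the average TSA effect on Gm28438 was 1.29 ± 0.44 (adjusted p = 0.0771, edgeR), and DESeq2 called 1 of the 2 there. How reads that match both genomes were counted is not given in the sources used here, and whether that accounts for the block was not tested. No value is therefore available for the ATP synthase genes or for mt-Co2, mt-Co3, mt-Nd3 and mt-Nd4l, and sums over protein genes below cover the other 7.

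**Figure D1:**
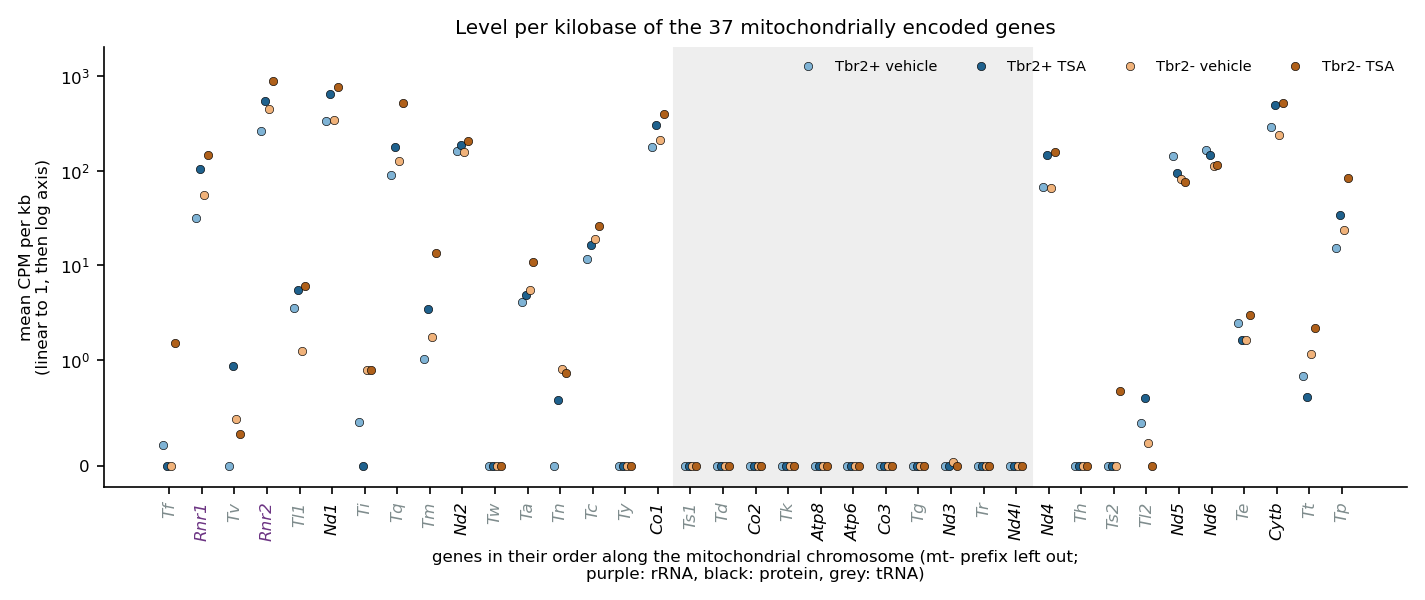
Mean CPM per kilobase of gene (vertical axis, linear up to 1 and logarithmic above) for the 37 mitochondrial genes in chromosome order (horizontal axis), 1 point per group; grey shading marks the block of 11 genes. The block lies at or near 0 in every group, whereas mt-Co1 (178 in Tbr2+ vehicle) and mt-Nd4 (66.8) on either side do not.

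Per kilobase, mt-Nd1 had the highest mean level in both Tbr2+ groups and mt-Rnr2 in both Tbr2- groups. In Tbr2+ vehicle, mt-Nd1 (a complex I subunit) averaged 331 ± 212 CPM per kb (SD, n = 3), mt-Cytb (the cytochrome of complex III) 289 ± 171 and mt-Rnr2 (the large-subunit rRNA) 263 ± 53.6. They were followed by mt-Co1 (the catalytic subunit of complex IV; 178 ± 89.5), mt-Nd6 (165 ± 128), mt-Nd2 (159 ± 123), mt-Nd5 (141 ± 106) and mt-Nd4 (66.8 ± 45.9), all of complex I but for mt-Co1. Among the tRNAs, mt-Tq averaged 89.95 ± 79.2, between mt-Nd5 and mt-Nd4. Neighbours in this order differed by less than the larger of their SDs. In Tbr2- vehicle mt-Rnr2 averaged 442 ± 91.9, mt-Nd1 338 ± 210, mt-Cytb 235 ± 152 and mt-Co1 211 ± 111 CPM per kb (SD, n = 3). The small-subunit rRNA, mt-Rnr1, had a lower mean than these genes, at 31.4 ± 8.45 CPM per kb in Tbr2+ vehicle and 55.3 ± 6.12 in Tbr2- vehicle. In the vehicle libraries numbered 1, however, mt-Nd4 (23.7 and 18.4) lay below mt-Rnr1 (27.6 and 48.4). The ribosome contains its 2 rRNAs in equal number. In counts per kb, mt-Rnr2 exceeded mt-Rnr1 by 7.90 to 9.42 times in the Tbr2+ vehicle libraries. In the Tbr2- vehicle libraries it did so by 6.68 to 9.51 times. How well the library preparation captured each rRNA was not tested. The rRNA counts here and below therefore give captured RNA, not the number of rRNA molecules.

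Of the 15 genes tested, the 2 rRNAs passed between the populations under vehicle, and the other 13 did not. Both were lower in Tbr2+ than in Tbr2-. mt-Rnr1 (ENSMUSG00000064337; MT, 70 to 1024) stood at 26.3, 24.3 and 39.2 CPM in the Tbr2+ vehicle libraries and at 46.2, 55.0 and 57.3 in the Tbr2- vehicle libraries, without overlap. The log2 fold change was -0.82 ± 0.22 (standard error), 1.76-fold lower (adjusted p = 0.0163, edgeR quasi-likelihood test over 20078 genes). mt-Rnr2 (ENSMUSG00000064339; MT, 1094 to 2675) stood at 355.5, 380.0 and 513.0 against 598.1, 865.9 and 633.8 CPM, again without overlap (-0.75 ± 0.24, 1.68-fold lower, adjusted p = 0.0422, edgeR). These were 2 lower and 0 higher of the 15 tested, where 21.4% of all genes passed (9.96% higher and 11.5% lower). Without overlap, CPM lay below Tbr2- for 2 of the 15 and above for 0, against 21.3% and 18.4% of all genes. The median log2 fold change of the 15 was -0.24, against -0.05 over all genes tested. Neither call outlasted the loss of the 2 vehicle libraries numbered 1 (mt-Rnr1 -0.80, adjusted p = 0.0819; mt-Rnr2 -0.73, adjusted p = 0.148, edgeR). Over 18 alternatives the adjusted p ran from 0.00302 to 0.0819 for mt-Rnr1, lost without Tbr2+ vehicle 1 (0.0732), Tbr2+ vehicle 2 (0.0788) or Tbr2- vehicle 3 (0.065), and from 0.01 to 0.154 for mt-Rnr2, lost without any 1 of the vehicle libraries but Tbr2+ vehicle 3 (0.0516 to 0.154).

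Under TSA, 0 of the 15 passed between the populations in edgeR, with 1 at an unadjusted p under 0.05, and 0 passed in DESeq2. Of all genes 9.32% passed in edgeR (4.19% higher and 5.13% lower). mt-Rnr2 stood at 882.1 and 840.6 CPM in Tbr2+ and at 1843 and 909.5 in Tbr2- (-0.68 ± 0.30, adjusted p = 0.189, edgeR). Without the Tbr2- TSA library numbered 2 it passed (-1.07, adjusted p = 0.0385, edgeR), the single one of its alternatives in which it did. For mt-Rnr1 the CPM ranges overlapped between the populations (-0.47 ± 0.26, adjusted p = 0.315). CPM lay above without overlap for 1 of the 15, mt-Nd5, and below for 6 (mt-Rnr2, mt-Co1, mt-Tq, mt-Tm, mt-Ta and mt-Tp), against 23.6% and 27.3% of all genes. Of these, mt-Tm passed the filter on low counts only through the Tbr2- TSA libraries, so its place below was fixed by the filter. Over the 13 genes that pass it without the libraries of either group, 1 lay above and 5 below, against 23.9% and 27.3% of such genes.

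Under TSA, both rRNAs lay above every vehicle library of the same population. In Tbr2+ cells mt-Rnr1 reached 112.5 and 86.7 CPM under TSA, above all 3 vehicle libraries (log2 fold change 1.73 ± 0.24), but it did not pass (adjusted p = 0.0529, edgeR). No gene of any kind passed in that comparison (0.0% of 20078), although 2 of the 15 mitochondrial genes and 3175 of all genes had an unadjusted p under 0.05, and DESeq2 called 996 genes. DESeq2 called both rRNAs there (mt-Rnr1 adjusted p = 4.76e-08, mt-Rnr2 0.00542). In edgeR mt-Rnr1 passed there without Tbr2+ vehicle 3 (1.99, adjusted p = 0.0383) or Tbr2+ TSA 2 (1.91, adjusted p = 0.0373), and over 17 alternatives its adjusted p ran from 4.76e-08 to 0.299. In Tbr2- cells mt-Rnr1 rose to 167.0 and 108.7 CPM, 2.61-fold (1.38 ± 0.24, adjusted p = 0.0481, edgeR), 1 of 15 where 1.18% of all genes passed (0.817% higher and 0.359% lower). The call sat at the threshold. Over 17 alternatives it passed in 11, with adjusted p from 3.26e-05 to 0.513. It was lost without Tbr2- TSA 1 (log2 fold change 1.05) or Tbr2- TSA 2 (1.66), each of which left 1 TSA library in Tbr2-. The call was also lost without Tbr2- vehicle 1 (adjusted p = 0.173, edgeR), Tbr2- vehicle 3 (0.139), Tbr2+ vehicle 2 (0.0783), or both vehicle libraries numbered 1 (0.146). In these vehicle fits no gene of any kind passed for TSA in Tbr2-, so the loss was not particular to mt-Rnr1. mt-Rnr2 lay without overlap above vehicle in both populations and did not pass in either (Tbr2+ 1.05 ± 0.27, adjusted p = 0.102; Tbr2- 0.98 ± 0.26, adjusted p = 0.0712, edgeR). In Tbr2- it passed without Tbr2- vehicle 2 (1.16, adjusted p = 0.0496, edgeR). Without both vehicle libraries numbered 1 the values were 1.65 for mt-Rnr1 in Tbr2+ (adjusted p = 0.299) and 0.95 and 0.87 for mt-Rnr2 in Tbr2+ and Tbr2- (adjusted p = 0.344 and 0.225, edgeR).

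Averaged over both populations, the effect of TSA passed for both rRNAs. mt-Rnr1 was 2.95-fold higher (1.56 ± 0.17, adjusted p = 0.0028, edgeR), and it passed in all 16 alternatives (adjusted p 3.5e-14 to 0.0358). mt-Rnr2 was 2.02-fold higher (1.01 ± 0.19, adjusted p = 0.0084, edgeR). It passed in 14 of 16 (adjusted p 4.89e-06 to 0.0613), and was lost without Tbr2- TSA 1 (0.73, adjusted p = 0.0511) and without both vehicle libraries numbered 1 (0.91, adjusted p = 0.0613). These 2 of 15 compare with 10.8% of all genes called (6.39% higher and 4.46% lower). The median over the 15 was 1.01, against -0.08 over all genes. The 15 include mt-Tm, mt-Tl1 and mt-Ta, which passed the filter on low counts only through TSA libraries. A high value under TSA was thus a condition of their entry. Among the other classes, the median was 0.84 over the 7 protein genes and 1.29 over the 2 rRNAs. This average and the effects within each population rest on the same libraries and are not separate evidence. No difference in the TSA effect between the populations was detected, within wide errors. The interaction, the effect in Tbr2+ minus that in Tbr2-, was 0.35 ± 0.34 for mt-Rnr1 and 0.07 ± 0.38 for mt-Rnr2, and 0 of 15 passed (0.0% of all genes; edgeR, 0 of 15 at an unadjusted p under 0.05; DESeq2, 0 of 15).

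**Figure D2:**
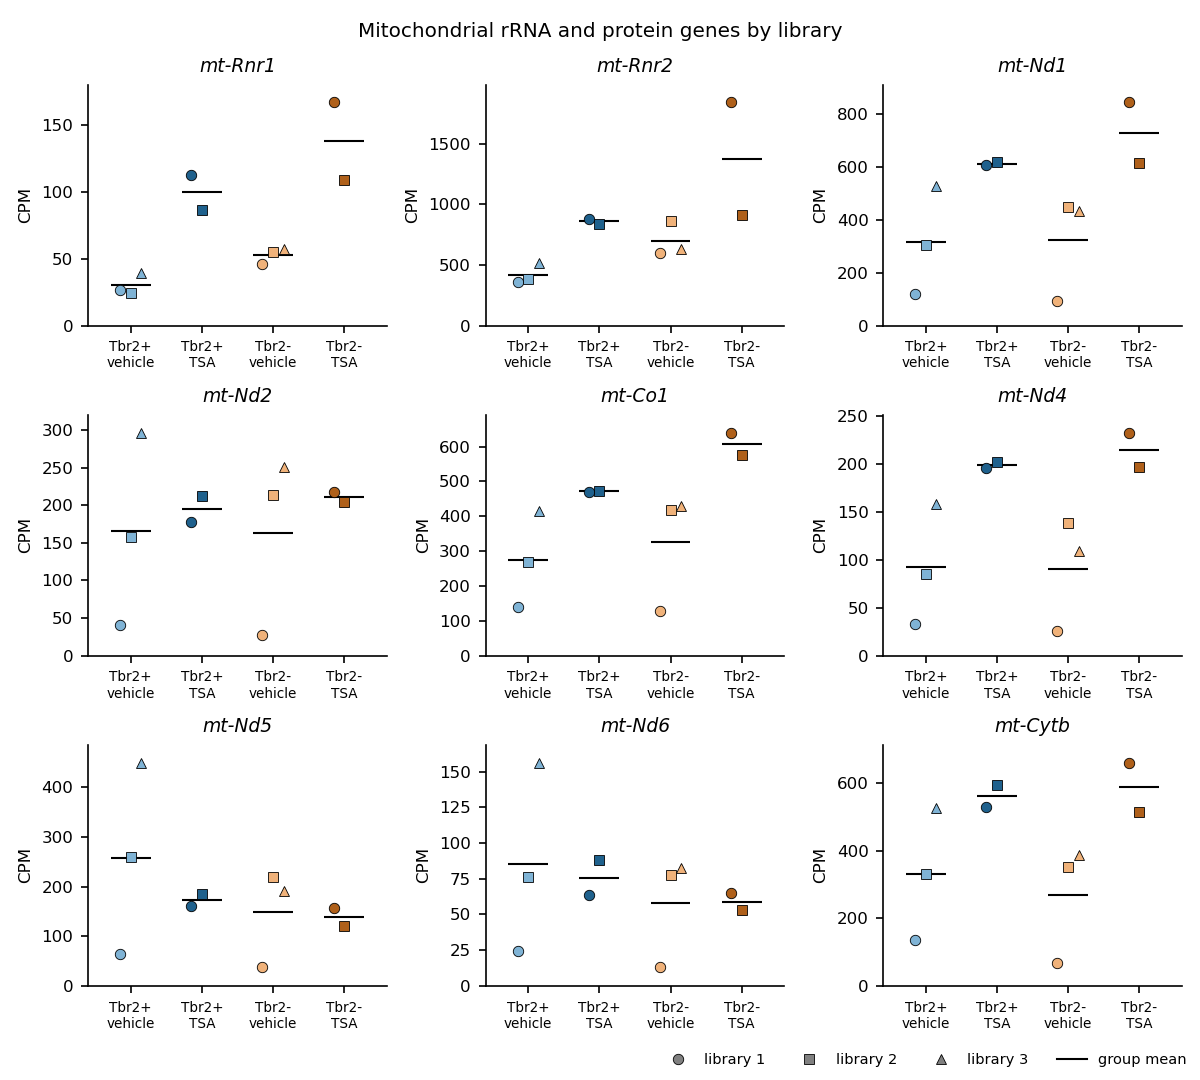
CPM (vertical axes, each from 0) of the 2 rRNA and 7 counted protein genes in each library, by group; symbols give the library number and lines the group means. mt-Rnr1 under TSA (86.7 to 167.0) lies above every vehicle library (24.3 to 57.3), whereas mt-Nd5 and mt-Nd6 under TSA lie within the vehicle range.

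The ratio of the 2 rRNAs was lower under TSA. mt-Rnr2 counts were 13.5, 15.6 and 13.1 times those of mt-Rnr1 in Tbr2+ vehicle and 7.84 and 9.70 times in Tbr2+ TSA. In Tbr2- cells they were 12.95, 15.75 and 11.06 times under vehicle and 11.04 and 8.36 times under TSA. All 4 TSA values lay below all 6 vehicle values, with the nearest pair at 11.04 and 11.06. These ratios were chosen after the values had been seen and carry no test.

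No protein gene passed in any comparison in edgeR with all 10 libraries and 1 mean per group (fits with a replicate block called 5), and the spread between vehicle libraries was wide. mt-Nd1 stood at 120.1, 305.2 and 524.9 CPM in Tbr2+ vehicle and at 604.6 and 616.6 in Tbr2+ TSA. In Tbr2- it stood at 91.1, 446.2 and 432.1 under vehicle and at 842.5 and 612.9 under TSA. The TSA libraries were thus above every vehicle library of their population, with log2 fold changes of 0.95 ± 0.64 and 1.17 ± 0.64 (adjusted p = 0.511 and 0.343, edgeR). mt-Co1 had the smallest error of the 7. It stood at 139.8, 269.1 and 416.1 CPM in Tbr2+ vehicle and 470.1 and 472.1 in Tbr2+ TSA, and at 128.1, 416.8 and 430.8 in Tbr2- vehicle and 640.1 and 574.7 in Tbr2- TSA. Its average TSA effect, 0.84 ± 0.31, did not pass (adjusted p = 0.104, edgeR). mt-Nd4 (average effect 1.18 ± 0.47, adjusted p = 0.137) and mt-Cytb (0.95 ± 0.45, adjusted p = 0.212) also lay above vehicle without overlap in both populations, although in Tbr2+ the mt-Cytb groups nearly touched, at 526.8 against 527.6 CPM. Without Tbr2+ vehicle 3 the average effect passed for mt-Co1 (1.06, adjusted p = 0.0454) and mt-Nd4 (1.51, adjusted p = 0.0440; edgeR). Over 16 alternatives the adjusted p ran from 0.0186 to 0.358 for mt-Co1 and from 0.0207 to 0.358 for mt-Nd4, and each passed in 2. Without both vehicle libraries numbered 1 the average effects were smaller and none passed: 0.64 for mt-Nd1, 0.49 for mt-Co1, 0.75 for mt-Nd4 and 0.53 for mt-Cytb (adjusted p 0.0718 to 0.113, edgeR).

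For the remaining 3 complex I genes tested, TSA and vehicle overlapped in both populations. mt-Nd2 under TSA (177.4 and 212.2 CPM in Tbr2+, 217.4 and 204.3 in Tbr2-) lay inside the vehicle range of 41.5 to 296.5 in Tbr2+ and 27.2 to 250.6 in Tbr2-. mt-Nd5 stood at 64.4, 259.5 and 449.3 CPM in Tbr2+ vehicle against 160.9 and 184.1 in Tbr2+ TSA, and at 37.3, 218.9 and 190.4 against 157.0 and 120.4 in Tbr2-. Its log2 fold changes were -0.58 ± 0.82 and -0.10 ± 0.81, and neither sign was stable. The Tbr2+ value turned to 0.11 without Tbr2+ vehicle 3, and the Tbr2- value to 0.29, 0.11 and 0.08 without Tbr2- vehicle 2, Tbr2- vehicle 3 and Tbr2- TSA 2; with a replicate block the values were 0.26 and 0.74, none passing. mt-Nd6, which lies on the opposite strand from the other protein genes and overlaps the end of mt-Nd5, gave -0.18 ± 0.79 and 0.03 ± 0.79. Without both vehicle libraries numbered 1 the average effects were -0.18 for mt-Nd2 (0.30 ± 0.65 with them), -0.80 for mt-Nd5 (-0.34 ± 0.57 with them) and -0.53 for mt-Nd6 (-0.07 ± 0.56 with them), none passing (adjusted p 0.0551 to 0.647, edgeR). The TruSeq RNA v2 kit does not mark strand, so RNA of mt-Nd6 and RNA copied from the opposite strand there cannot be told apart. Standard errors for the protein genes within a population ran from 0.44 to 0.92 on the log2 scale, on which 1 is a doubling, and 0 of the 7 had an unadjusted p under 0.05 in either population. A miss is therefore no evidence of an equal level.

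Over the 15 genes tested, the CPM of the TSA libraries lay above all vehicle libraries of the population for 8 in Tbr2+ and 10 in Tbr2-, and below for 0 in both, against 15.9% and 19.7% of all genes lying above and 17.6% and 21.0% below. The 8 that did so in both populations, where 8.85% of all genes did, were mt-Rnr1, mt-Rnr2, mt-Nd1, mt-Co1, mt-Nd4, mt-Cytb, mt-Tm and mt-Tp. The tRNAs mt-Tm, mt-Tl1 and mt-Ta would not have passed the filter on low counts without the TSA libraries, so a high value there was a condition of their entry. Over the genes that pass it without the libraries of either group, 8 of 14 lay above in Tbr2+ (16.4% of such genes), 8 of 13 in Tbr2- (20.6%) and 7 of 12 in both (10.1%). The vehicle libraries numbered 1 set none of these upper limits, since for all 8 genes they were not the highest vehicle library.

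**Figure D3:**
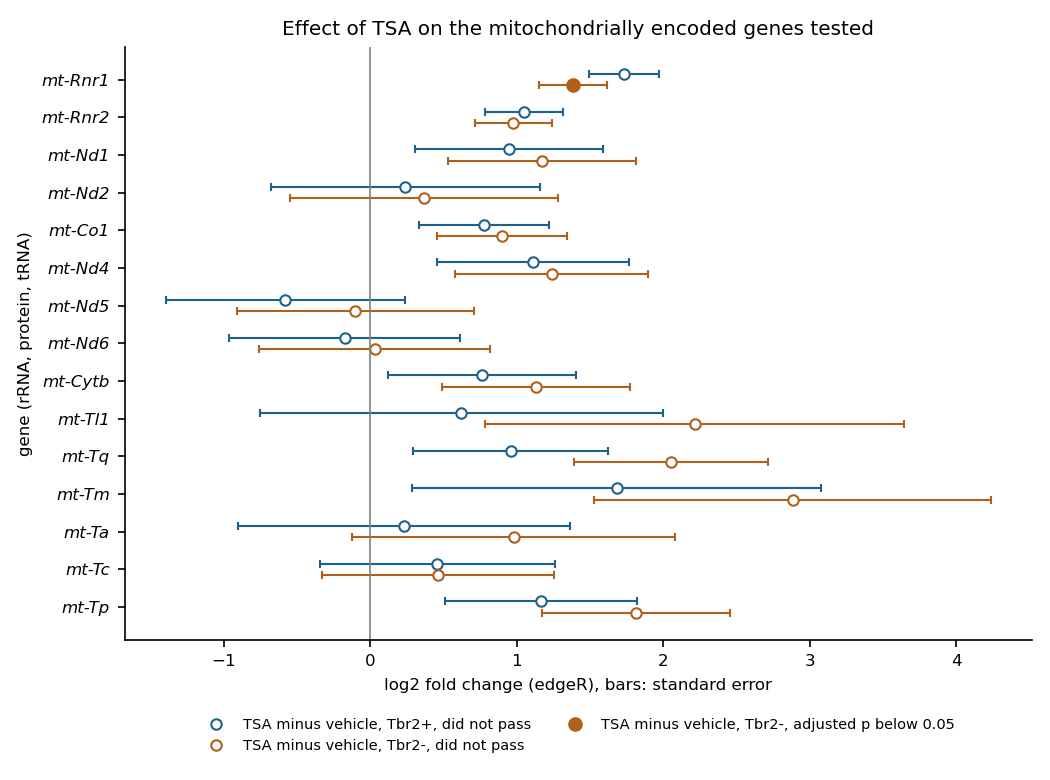
Log2 fold change of TSA against vehicle (horizontal axis; bars are standard errors, edgeR) for the 15 mitochondrial genes tested (vertical axis), in Tbr2+ (blue) and Tbr2- (brown). Only mt-Rnr1 in Tbr2- passed (filled); mt-Nd5 has negative values in both populations (-0.58 and -0.10), which turn positive without single libraries and with a replicate block.

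The mix of protein-gene RNA was steadier between libraries than its amount, and the gene shares differed between TSA and vehicle. mt-Nd5 made up 11.5%, 17.5% and 17.8% of the counts on the 7 protein genes in Tbr2+ vehicle and 7.31% and 7.77% in Tbr2+ TSA. In Tbr2- it made up 9.53%, 11.8% and 10.1% under vehicle and 5.58% and 5.29% under TSA. mt-Nd6 showed the same order, at 4.35%, 5.15% and 6.18% against 2.89% and 3.71% in Tbr2+, and at 3.34%, 4.17% and 4.39% against 2.31% and 2.32% in Tbr2-. The shares of mt-Nd1 and mt-Nd4 lay higher instead. mt-Nd1 had 20.6% to 21.5% in Tbr2+ vehicle and 26.0% and 27.5% in Tbr2+ TSA, and 23.0% to 24.0% in Tbr2- vehicle and 26.9% and 29.9% in Tbr2- TSA. mt-Nd4 had 5.73% to 6.27% against 8.53% and 8.90% in Tbr2+, and 5.80% to 7.42% against 8.27% and 8.63% in Tbr2-. Of the 7 genes, 2 lay above and 2 below vehicle without overlap in Tbr2+, and 3 above (mt-Cytb in addition) and 2 below in Tbr2-.

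Expressed as a ratio, mt-Nd1 counts were 1.87, 1.18 and 1.17 times those of mt-Nd5 in Tbr2+ vehicle and 3.76 and 3.35 times in Tbr2+ TSA. In Tbr2- they were 2.44, 2.04 and 2.27 times under vehicle and 5.37 and 5.09 times under TSA. Within each treatment the ratio was also higher in Tbr2- than in Tbr2+, in every library. The vehicle libraries numbered 1, with their low mitochondrial share, had the highest vehicle ratios, and the TSA ratios exceeded them in both populations. Shares and ratios compare genes within a library, so scaling between libraries does not enter them. They show unequal levels of the genes, not which of them moved. They were chosen after the values had been seen, and no test is given.

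**Figure D4:**
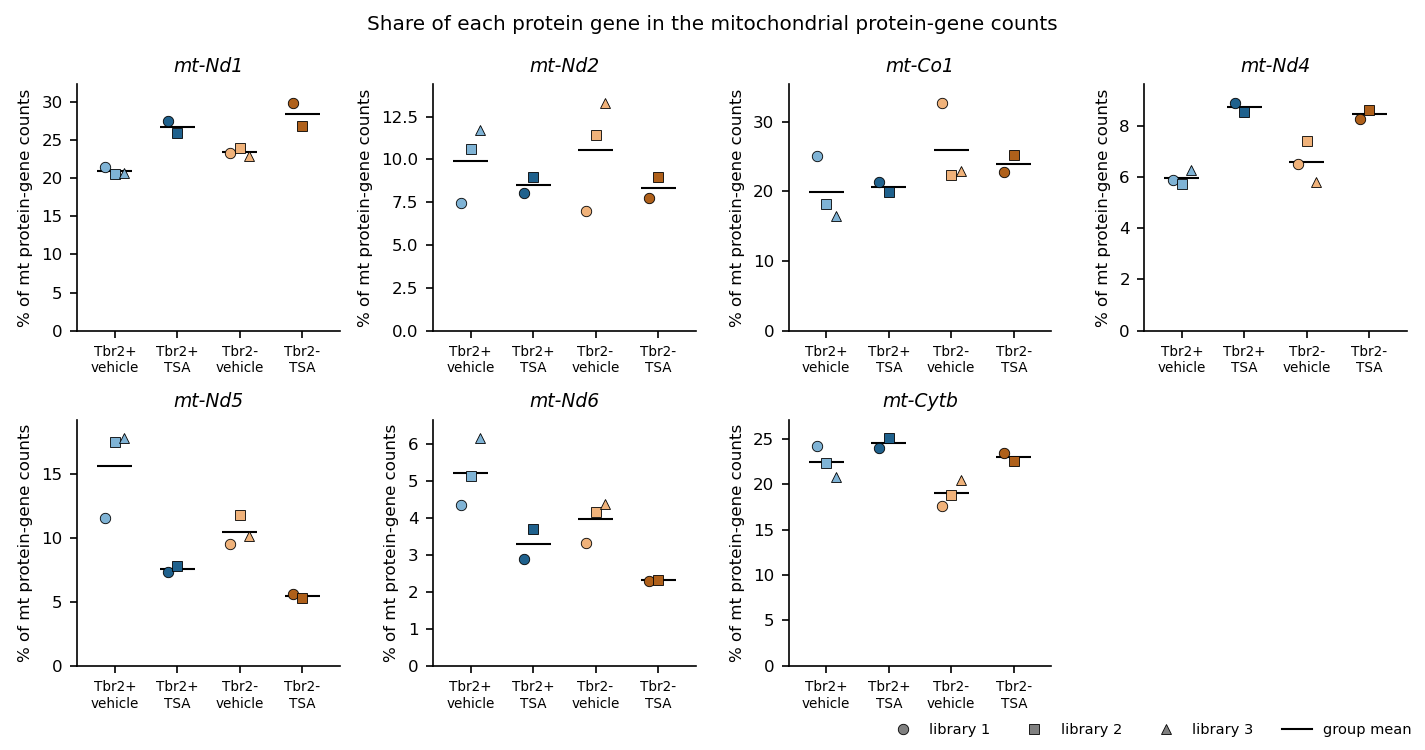
Percentage of a library's counts on the 7 mitochondrial protein genes that fell on each gene (vertical axes, from 0), by group; symbols give the library number and lines the group means. mt-Nd5 and mt-Nd6 have lower shares in every TSA library (mt-Nd5 5.29% to 7.77%) than in the vehicle libraries of the same population, and mt-Nd1 and mt-Nd4 higher ones.

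Mature tRNAs are short, folded and heavily modified and are poorly caught by standard RNA sequencing, so counts on tRNA genes can include precursors. They were few: 6 of 22 tRNA genes were tested and none passed. mt-Tq, the glutamine tRNA, held 3351 of the 4472 tRNA counts. It stood at 1.52, 5.11 and 12.5 CPM in Tbr2+ vehicle, 13.6 and 11.2 in Tbr2+ TSA, 4.60, 5.37 and 16.7 in Tbr2- vehicle, and 43.7 and 30.2 in Tbr2- TSA. The groups overlapped in Tbr2+ and not in Tbr2-, where the log2 fold change was 2.06 ± 0.66 (adjusted p = 0.108, edgeR). mt-Tp, the proline tRNA, stood at 0.463, 0.618 and 1.98 CPM in Tbr2+ vehicle and 2.08 and 2.51 in Tbr2+ TSA, and at 1.01, 2.08 and 1.67 in Tbr2- vehicle and 6.09 and 5.06 in Tbr2- TSA. The average TSA effects, 1.51 ± 0.47 for mt-Tq and 1.49 ± 0.46 for mt-Tp, fell just short (adjusted p = 0.0563 and 0.0542, edgeR), and each passed in 3 of 16 alternatives (adjusted p 0.0147 to 0.23 for mt-Tq and 0.0153 to 0.197 for mt-Tp). mt-Tq passed without Tbr2+ vehicle 3 (1.99, adjusted p = 0.0147) or Tbr2- vehicle 3 (1.93, adjusted p = 0.0287), and mt-Tp without Tbr2+ vehicle 3 (1.95, adjusted p = 0.0153; edgeR) and in DESeq2 (adjusted p = 0.0176). Without both vehicle libraries numbered 1 the average effects were 1.12 for mt-Tq (adjusted p = 0.143) and 1.19 for mt-Tp (adjusted p = 0.197, edgeR). mt-Tc, mt-Ta, mt-Tl1 and mt-Tm (cysteine, alanine, a leucine and methionine) had 262, 94, 66 and 69 counts in all. Of the counts on mt-Tm, 20 and 25 lay in the Tbr2- TSA libraries and at most 8 in any other, so it passed the filter through the group in which it was highest. The 8 tRNAs below the filter had 2 to 34 counts each, the most in mt-Te.

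Nuclear genes that act on mitochondrial DNA and RNA were read against the 10.8% of all genes that passed for the average TSA effect. Of 18 genes for mitochondrial transcription and DNA upkeep, 0 passed for TSA in either population or on average (edgeR; median of the average effect 0.02, against -0.08 over all genes; 4 had an unadjusted p under 0.05 on average, and DESeq2 called 1 higher and 1 lower). Tfam, which packages mitochondrial DNA and activates its transcription, was nearest, at 0.40 ± 0.13 (adjusted p = 0.0689). Polrmt, the mitochondrial RNA polymerase, stood at 47.2 ± 11.1 CPM in Tbr2+ vehicle (SD, n = 3) and 29.3 ± 9.56 in Tbr2+ TSA (n = 2; -0.69 ± 0.31, adjusted p = 0.307, edgeR). Of 28 genes for mitochondrial RNA processing and stability, 27 were tested. On average over both populations 2 rose with TSA, among them Slirp (0.39 ± 0.11, adjusted p = 0.0407), a partner of Lrpprc in stabilising mitochondrial mRNA. The 2 that fell were Pnpt1 (-0.68 ± 0.17, adjusted p = 0.0254), an RNA exonuclease, and Trmu (-0.84 ± 0.23, adjusted p = 0.0327), a tRNA-modifying enzyme (edgeR). None of these 4 calls remained without both vehicle libraries numbered 1, nor without any 1 of Tbr2+ vehicle 1, Tbr2+ TSA 1, Tbr2- vehicle 1 and Tbr2- TSA 1. Of 10 nuclear regulators of mitochondrial biogenesis, 0 passed for TSA in edgeR or DESeq2; on average 3 had an unadjusted p under 0.05, and Yy1 had the smallest adjusted p, 0.11 (edgeR).

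Between the populations under vehicle, 7 of these genes passed (2 of 18, 2 of 27 and 3 of 10), where 21.4% of all genes did. Tbr2+ cells had higher Ssbp1 (0.91 ± 0.16, adjusted p = 0.00117), the single-stranded DNA-binding protein of mitochondria, and Mterf3 (0.54 ± 0.14, adjusted p = 0.016), a negative regulator of mitochondrial transcription (edgeR; 2 higher of 18). They also had higher Nsun4 (1.02 ± 0.22, adjusted p = 0.00524), which methylates the small-subunit rRNA, and Grsf1 (0.94 ± 0.19, adjusted p = 0.0038), an RNA-binding protein of mitochondrial RNA granules (2 higher of 27). Of the 10 biogenesis regulators, Nrf1 was higher (0.48 ± 0.15, adjusted p = 0.0406), while Myc (-1.18 ± 0.26, adjusted p = 0.00597) and the coactivator gene Ppargc1a (-1.14 ± 0.37, adjusted p = 0.0424) were lower. The Myc and Ppargc1a calls were lost without both vehicle libraries numbered 1. When single libraries were left out, the Nrf1 call was lost in some fits, as was the Ssbp1 or the Mterf3 call.

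Nuclear genes of the respiratory chain and the ATP synthase rose with TSA on average. Their list also holds Sdha to Sdhd (complex II) and Cycs (cytochrome c), which lie outside the complexes that mitochondrial genes encode. Of 78 nuclear respiratory chain and ATP synthase genes tested, 22 rose in Tbr2- and 0 passed in Tbr2+ (59 at an unadjusted p under 0.05; 30 higher and 1 lower in DESeq2). On average over both populations 61 rose and 1 fell (median 0.67, against -0.08 over all genes, edgeR). Without both vehicle libraries numbered 1 these counts were 0 in Tbr2-, 0 in Tbr2+ and 23 higher on average, with 0 lower. The average count was lowest without Tbr2- TSA 1 (17 higher) and next lowest without Tbr2+ TSA 1 (41). In Tbr2- it was 0 without Tbr2- TSA 1, Tbr2- TSA 2, Tbr2- vehicle 1, Tbr2- vehicle 3 or Tbr2+ vehicle 2, and up to 45 without Tbr2- vehicle 2. Of all genes, 0.817% rose in Tbr2-, and on average 6.39% rose and 4.46% fell. Their summed CPM ran from 13665 to 17091 in the 6 vehicle libraries and from 19502 to 26376 in the 4 TSA libraries, without overlap. Of 78 cytosolic ribosomal protein genes, which belong to a different ribosome, 22 rose in Tbr2- and 74 on average (median 0.84; 0 and 44 without both vehicle libraries numbered 1). Without Tbr2- TSA 1 the average count was 31, and the Tbr2- count was 0 without the same 5 single libraries and 44 without Tbr2- vehicle 2. Of 10 long noncoding RNAs listed as nuclear-retained, Gas5 included, 4 fell on average. Among these were Miat (-1.33 ± 0.27), Snhg11 (-1.15 ± 0.27) and Meg3 (-1.14 ± 0.29, adjusted p = 0.0112, 0.0208 and 0.0261, edgeR). The count was 0 without both vehicle libraries numbered 1, 1 without Tbr2+ vehicle 1 and 2 without Tbr2- vehicle 3. Calls were also lost without Tbr2- TSA 1 or Tbr2+ TSA 1, which left 1 TSA library in that population. The summed CPM of the 10 was 14808, 11995 and 10890.3 in Tbr2+ vehicle, and 6508 and 12713 in Tbr2+ TSA. It was 12639.6, 14250.2 and 9233 in Tbr2- vehicle, and 6313 and 8662 in Tbr2- TSA. The sums did not overlap in Tbr2- and overlapped in Tbr2+. Where each of these RNAs lay in the cell was not measured. The levels of the listed long noncoding and ribosomal protein RNAs thus stood beside the rRNA result, and their part in it was not tested.

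**Figure D5:**
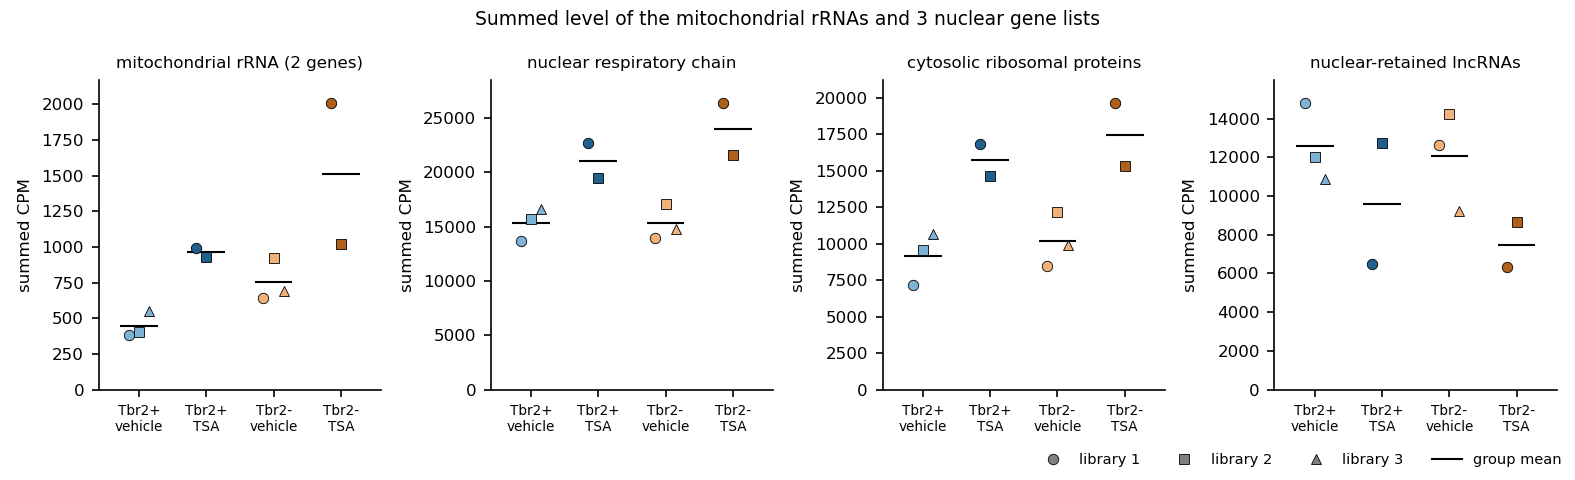
Summed CPM (vertical axes, from 0) of the 2 mitochondrial rRNAs and 3 nuclear gene lists in each library, by group. The lists are the nuclear-encoded respiratory chain, the cytosolic ribosomal proteins and the long noncoding RNAs listed as nuclear-retained. Symbols give the library number and lines the group means. The first 3 lie higher in the TSA libraries than in the vehicle libraries of the same population, and the long noncoding RNAs overlap in Tbr2+.

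Markers of other cell types differed between the populations and in part between treatments. No marker of the 7 lists was at 0 in every library. Under vehicle, 9.96% of all genes passed as higher in Tbr2+ and 11.5% as lower (edgeR). Neuron markers (8 genes) summed to 5416 to 6936 CPM in Tbr2+ vehicle and 7660 to 10128 in Tbr2- vehicle, with 3 lower and 1 higher in Tbr2+. Radial glia markers (8 genes) summed to 962 to 1252 and 796 to 850.2 CPM, with 2 higher, Pax6 (1.72 ± 0.22, adjusted p = 0.000143) and Vim (0.74 ± 0.17, adjusted p = 0.00612, edgeR). Interneuron markers (7 genes) summed to 92.8 to 193 CPM in Tbr2+ vehicle and 584 to 656 in Tbr2- vehicle, and 7 of 7 were lower in Tbr2+ (edgeR). Microglia markers (7 genes) summed to 17.8 to 28.3 CPM in Tbr2+ vehicle and 28.1 to 54.0 in Tbr2- vehicle, with 2 lower, vascular markers (8 genes) to 21.8 to 46.3 and 35.4 to 55.0, with 1 lower, and erythroid markers (7 genes, 6 tested) to 283.0 to 455.0 and 483 to 703, with 0 passing. Between TSA and vehicle the erythroid, microglia and vascular lists had 0 genes passing in either population (edgeR; 0 or 1 of each list at an unadjusted p under 0.05). Interneuron markers reached 1065 to 1148 CPM in Tbr2- TSA, where 2 of 7 rose. With TSA, 0.817% of all genes rose in Tbr2- and 6.39% on average (edgeR). Neuron marker sums lay above vehicle without overlap under TSA in both populations (7585 to 8311 CPM in Tbr2+, 10465 to 11692 in Tbr2-), with 8 of 8 values positive, 0 passing in either population and 1, Stmn2, on average (0.85 ± 0.18, adjusted p = 0.0117, edgeR). Radial glia sums under TSA were 1001 to 1126 CPM in Tbr2+, within the vehicle range. In Tbr2- they were 996 to 1047, above it, where 1 of 8 rose (Sox2, 1.07 ± 0.20, adjusted p = 0.0481, edgeR). No gene of any kind passed for TSA in Tbr2- without both vehicle libraries numbered 1 (edgeR). The same held without Tbr2- vehicle 1, Tbr2- vehicle 3 or Tbr2+ vehicle 2. The Sox2 and interneuron calls in Tbr2- were thus lost in these fits. The part of these cells in the rRNA differences was not tested.

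The chromatin libraries held no called peak at these genes. Acetylation of histone H3 at lysine 9 marks active nuclear promoters, and mitochondrial DNA carries no histones. Across 15 H3K9ac peak lists of 31823 to 82164 peaks each, 0 peaks lay on the mitochondrial chromosome and 0 at the 3 nuclear copies with a RefSeq position. Whether mitochondrial reads were kept before peak calling is not given in the sources used here, so the 0 is a property of the lists.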

How the data were processed

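RNA and H3K9ac ChIP libraries were made from Tbr2+ and Tbr2- samples of embryonic cortex; the RNA libraries were prepared with the TruSeq RNA v2 kit, per the labels' protocols. The deposited RNA tables hold raw counts of reads per Ensembl gene (10 libraries). The aligner, the counter and the annotation behind them were not given in the sources used here; mm10, SAMtools and MACS2 are named in the submitters' processing notes. The deposited peak lists, 1 per library, carry the version line MACS 2.1.0.20140616. Per the file headers, the authors' peak lists give a pileup signal, a fold enrichment and -log10 p- and q-values for each peak. Only peak positions were used, and -log10 q in 1 alternative. The 4 input libraries were not analysed here.

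Genes were tested with edgeR 4.0.16 (R 4.3.3; robust quasi-likelihood test, TMM scaling, filterByExpr, 1 mean per group, all 10 libraries) with Benjamini-Hochberg adjustment over 20078 genes and a threshold of 0.05; the standard error is the log2 fold change divided by the root of F. CPM used TMM-scaled totals, and levels between genes are per kilobase. Alternatives were DESeq2 1.42.0, other scalings, no filter, each pair of groups alone, leaving out each library and a replicate block. The fit was tested on simulated data. The members, lists and ratios were chosen with earlier results of these data known. All mitochondrial genes were accounted for; from the lists, up to 3 genes with the smallest adjusted p per comparison were named, or up to 2 where none passed.

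Same-numbered vehicle libraries of the 2 populations deviated together weakly (correlations of 0.0807 to 0.0994), each library best with its own number. Under TSA the correlation was 0.117. With 2 TSA libraries per population, deviations from the group mean mirror each other, so the other pairing could only give -0.117. Between treatments of the same population, same-numbered libraries did not deviate together (-0.02965 to -0.007512). Whether same-numbered libraries of the 2 populations came from 1 sort is not in the labels used here. The main fit did not take the numbers as pairs, so it ignores any such pairing. Fits with a replicate block are given as alternatives.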

Additional observations from a re-analysis of the deposited data

How the results depend on the processing

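The number of mitochondrial genes passing (of 15) depended on the processing, and no gene that passed turned its direction. For the populations under vehicle it was 2, with 1 under a replicate block by number over all libraries, 0 without both vehicle libraries numbered 1 (chosen after seeing the data) and 0 to 2 when each library was left out. For the populations under TSA it was 0, with 1 (mt-Tq) under a replicate block within treatment and when only the 2 groups were fitted, and 0 to 1 over left-out libraries. For TSA in Tbr2+ it was 0, with 1 without scaling, 2 with no filter on low counts, 2 with DESeq2, 1 under the replicate block by number and 0 to 1 over left-out libraries. For TSA in Tbr2- it was 1, with 2 with no filter, 2 with DESeq2, 2 under the replicate block, 0 without both vehicle libraries numbered 1 and 0 to 2 over left-out libraries. For the average TSA effect it was 2, with 8 under the replicate block by number, 1 without both vehicle libraries numbered 1 and 1 to 6 over left-out libraries; the 6 came without Tbr2+ vehicle 3. The cause was not tested.

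Under the replicate block the 8 were mt-Rnr1, mt-Rnr2, mt-Nd1, mt-Co1, mt-Nd4, mt-Cytb, mt-Tq and mt-Tp, and in the block within treatment mt-Nd5 passed between the populations under vehicle (0.76, adjusted p = 0.0147, edgeR). The labels give the libraries only a number. Same-numbered vehicle libraries of the populations correlated at 0.0807 to 0.0994, each library best with its own number. Under TSA the value was 0.117, where 2 libraries per population allow only 0.117 or -0.117. Same-numbered vehicle and TSA libraries of the same population correlated at -0.02965 to -0.007512. The block by number over all libraries treats those as alike too. The vehicle libraries numbered 1 also stood apart in both populations. Whether same-numbered libraries came from 1 sort is not in the labels used here.

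Of 1530 refits of single mitochondrial genes, 1483 kept their side of the threshold, 28 gained a call and 19 lost one; 92 turned sign without passing before or after. Over all genes, calls for TSA in Tbr2- ran from 0 to 1983 (236 as reported), in Tbr2+ from 0 to 996, for the average effect from 245 to 3494 (2178), and for the populations from 2746 to 5289 (4303) under vehicle and 683 to 2974 (1871) under TSA. The mean mitochondrial share in Tbr2+ TSA was 0.326% of scaled totals, 0.317% of raw totals and 0.318% without mitochondrial genes in the total. When each library was left out, the share ran from 0.142% to 0.250% in Tbr2+ vehicle, 0.321% to 0.331% in Tbr2+ TSA, 0.182% to 0.269% in Tbr2- vehicle and 0.334% to 0.488% in Tbr2- TSA. Depth limited the tRNAs: 4 of the 6 tested had 66 to 262 counts in all 10 libraries together.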
